A study of Mus musculus with 16 samples.

Results

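The interleukin-1 (IL-1) family genes described here are the agonist Il1a, the antagonist Il1rn, the receptor chains Il1r1, Il1r2, Il1rap, Il1rl1, Il18r1 and Il18rap, the ligand Il33 and the inhibitory receptor Sigirr. They were chosen by name, 10 genes in all, and 9 of them had a row among the 19505 genes tested. Il1rl1, the receptor chain for IL-33, was not analysed here. Each of the 9 had 1 probe set. RNA of 16 C57BL/6 liver samples was hybridised to 1-colour Affymetrix-type arrays, 8 samples of a nonalcoholic steatohepatitis (NASH) mouse model and 8 of control mice. All samples are labelled as liver biopsies, and the labels used here do not say how the model was induced or give age, sex or collection time. NASH model samples carry the numbers 1a, 1b and 2 to 7, and controls the numbers 1, 3 to 7, 9 and 10. The labels do not tie samples to separate animals, and the spread behind each p-value may therefore be partly technical.

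IL-1 alpha and IL-1 beta bind the receptor IL-1R1 (Il1r1), which then recruits the accessory protein IL-1RAcP (Il1rap), and this pair starts signalling through the adaptor MyD88 and the IRAK kinases to NF-kB. The receptor antagonist (Il1rn) occupies IL-1R1 without recruiting the accessory protein, and IL-1R2 (Il1r2) is a decoy that binds ligand without signalling. IL-33 and IL-18 use their own receptor chains, and the IL-33 receptor shares the accessory protein with IL-1R1. In liver, IL-1 from macrophages acts on hepatocytes, where it drives acute-phase proteins.

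In the NASH model livers the antagonist Il1rn was higher, and both chains of the signalling IL-1 receptor, Il1r1 and Il1rap, were lower. Il1rn was 5.40-fold higher, Il1r1 was lower by a factor of 2.04 and Il1rap by a factor of 1.92. The other 6 members with a row, Il1a, Il33, Il1r2, Il18r1, Il18rap and Sigirr, did not pass the test (limma, p adjusted by the Benjamini-Hochberg method across all genes, threshold 0.05). Of all genes tested, 26.6% passed, 13.2% higher and 13.4% lower in the NASH model. Among members, 1 of 9 was higher and 2 of 9 were lower, so the number of calls was near the share over all genes. The members' median log2 fold change was 0.23, against -0.04 over all genes. In bulk liver, fewer cells of a type and less RNA per cell cannot be told apart.

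Values are log2 signals, on which a difference of 1 is a factor of 2. A background floor of 2.89 was set as the 95th percentile of 1412 olfactory and vomeronasal receptor genes, which liver is not known to use. Markers fit the label of liver: Alb, the main plasma protein of hepatocytes, averaged 12.64 ± 0.02 in NASH model samples and 12.62 ± 0.05 in controls (SD, n = 8 each), close to the highest deposited value of 12.74. Hepatocyte markers summed to 29159 to 32112 on the linear signal scale in NASH model samples and to 28621 to 31507 in controls. This sum rests mostly on the brightest genes, such as Alb, which lie near the top of the scale. Of 9 markers 2 were lower, against 13.4% of all genes. These were Hnf4a, by 0.66 ± 0.10 (SE, limma, adjusted p = 5.4e-05), and F7, by 0.84 ± 0.11 (SE, limma, adjusted p = 6.3e-06).

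Controls 5, 6 and 10 stood apart from the other controls in acute-phase genes. Lcn2, which encodes the secreted lipocalin induced in hepatocytes by inflammation, was 5.91, 7.89 and 5.54 in controls 5, 6 and 10. In the other 5 controls Lcn2 was 10.82 to 11.95, and in the 8 NASH model samples its median was 11.48. The serum amyloid genes Saa1 and Saa2, acute-phase proteins of hepatocytes, were also lowest in these 3 controls. Saa1 was 6.39, 8.75 and 6.14 in controls 5, 6 and 10, and at least 9.75 in the other 5. In NASH model samples Saa1 was 6.62 to 8.10, so control 6 and the other 5 controls lay above every NASH model sample. Saa2 was 6.34 to 7.87 in NASH model samples, also below the other 5 controls. The cause was not tested. Values that rest on controls 5, 6 and 10 are given below with and without them. A fit without them keeps only controls with high Saa1, Saa2 and Lcn2, and no fit left out all of those.

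Il1rn, Il1r1 and Il1rap carry the differences between the groups, so the bases just before their transcription starts are shown. Each window is the 250 bases before a start in RefSeq (GRCm38.p6), read 5′ to 3′ on the gene's own strand, which is plus for all 5 windows. Capitals mark matches to any of 5 motifs searched on both strands: the NF-kB motif, TTCNNNGAA for STAT factors, TGANTCA for AP-1, TTGCNNAA for C/EBP and GAGGAA for PU.1. Il1rn has an upstream start, shown at chr2:24336610-24336859, and a later start, shown at chr2:24345041-24345290. Il1r1 also has an upstream start, at chr1:40224830-40225079, and a later one, at chr1:40266336-40266585, and Il1rap has 1 window at chr16:26581455-26581704.
Il1rn, upstream start: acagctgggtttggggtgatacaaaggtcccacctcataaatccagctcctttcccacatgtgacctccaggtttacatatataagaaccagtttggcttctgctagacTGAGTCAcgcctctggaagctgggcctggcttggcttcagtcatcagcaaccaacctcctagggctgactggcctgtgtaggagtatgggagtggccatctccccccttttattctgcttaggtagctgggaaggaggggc
Il1rn, later start: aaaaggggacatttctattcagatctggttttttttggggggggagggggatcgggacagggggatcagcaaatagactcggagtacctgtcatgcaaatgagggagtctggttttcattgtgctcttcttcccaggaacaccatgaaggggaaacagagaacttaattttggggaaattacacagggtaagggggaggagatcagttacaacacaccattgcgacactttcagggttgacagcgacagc
Il1r1, upstream start: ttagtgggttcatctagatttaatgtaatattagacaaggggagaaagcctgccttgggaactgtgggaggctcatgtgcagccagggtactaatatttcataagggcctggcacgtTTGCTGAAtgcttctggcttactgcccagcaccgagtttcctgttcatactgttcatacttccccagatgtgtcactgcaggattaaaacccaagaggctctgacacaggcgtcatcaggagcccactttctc
Il1r1, later start: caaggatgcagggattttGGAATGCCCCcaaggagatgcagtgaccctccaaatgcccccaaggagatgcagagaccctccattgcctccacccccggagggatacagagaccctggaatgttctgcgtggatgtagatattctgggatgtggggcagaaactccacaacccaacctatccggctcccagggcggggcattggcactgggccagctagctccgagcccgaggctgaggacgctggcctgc
Il1rap: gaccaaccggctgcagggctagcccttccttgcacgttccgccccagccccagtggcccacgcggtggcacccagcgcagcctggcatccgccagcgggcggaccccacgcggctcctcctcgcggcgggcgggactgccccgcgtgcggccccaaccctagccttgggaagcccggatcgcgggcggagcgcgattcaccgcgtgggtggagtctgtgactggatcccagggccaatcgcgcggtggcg

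The upstream window of Il1rn held an AP-1 match that begins at base -141 from the start, and its later window held no match. The upstream window of Il1r1 held a C/EBP match at -133 and its later window an NF-kB match at -232. The Il1rap window held none of the 5 motifs. Over 32851 windows of the same length in the RefSeq table, a match was present in 3.90% for NF-kB, 7.02% for STAT, 6.75% for AP-1, 9.56% for C/EBP and 23.3% for PU.1. In all, 9 of the 10 genes had a window in that table. The arrays do not tell which start was in use, and a match is a description of letters, not a site.

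Among the ligands, Il1a encodes IL-1 alpha, an agonist released from damaged cells. Its lowest, median and highest log2 signals were 4.86, 5.15 and 5.56 in NASH model samples, against 4.09, 5.02 and 5.28 in controls. The groups overlapped, and control 10 held the lowest value. The log2 fold change was 0.27 ± 0.15 (SE, limma, adjusted p = 0.20), with a 95% confidence interval of -0.04 to 0.59. Il33 encodes IL-33, a nuclear alarmin of stromal, endothelial and epithelial cells. Il33 was 4.83, 5.04 and 5.25 (lowest, median, highest) in NASH model samples and 4.40, 4.77 and 5.21 in controls, and the groups again overlapped. Its log2 fold change was 0.23 ± 0.11 (SE, limma, adjusted p = 0.15), with an interval of -0.01 to 0.46.

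The calls for both ligands depended on how the arrays were scaled. Without quantile normalization, Il1a was 0.42 higher (limma, adjusted p = 0.041) and Il33 was 0.38 higher (limma, adjusted p = 0.015). Centred on the spike-in controls, Il1a was 0.51 higher (limma, adjusted p = 0.020) and Il33 0.47 higher (limma, adjusted p = 0.0080). That centring put the median of all genes at 0.06. Relative to the median gene, Il1a was then 0.46 higher and Il33 0.42 higher, against 0.32 and 0.27 after quantile normalization.

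Il1b, the second IL-1 agonist, which is made mainly by myeloid cells, averaged 4.65 ± 0.31 in NASH model samples and 4.64 ± 0.63 in controls (SD, n = 8 each). Its log2 fold change was 0.01 ± 0.22 (SE, limma, adjusted p = 0.98). Control 10 had the lowest Il1b value, 3.42, and without controls 5, 6 and 10 the fold change was -0.21 (limma, adjusted p = 0.45). Il18, the ligand of the Il18r1 and Il18rap receptor, was lower in the NASH model livers. Il18 averaged 5.50 ± 0.17 in NASH model samples and 6.24 ± 0.24 in controls, the groups did not overlap, and the log2 fold change was -0.75 ± 0.11 (SE, limma, adjusted p = 2.8e-05).

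Il1rn, the receptor antagonist, separated the groups. It was 7.45, 7.40, 7.53, 7.19, 7.80, 7.46, 7.46 and 7.53 in NASH model samples 1a, 1b and 2 to 7. In controls 1, 3, 4, 5, 6, 7, 9 and 10, Il1rn was 4.80, 5.37, 6.10, 4.58, 4.43, 5.63, 5.19 and 4.29. Every NASH model sample lay above every control: the lowest, sample 3, was above the highest control, control 4. Over all genes 9.54% had groups that did not overlap, 5.65% with the NASH model higher. The log2 fold change was 2.43 ± 0.21 (SE, limma, adjusted p = 3.7e-08), with a 95% confidence interval of 1.997 to 2.87, and Il1rn ranked 77 from the top of 19505 fold changes.

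The spread of Il1rn was unequal between the groups, with means of 7.48 ± 0.17 in NASH model samples and 5.05 ± 0.63 in controls (SD, n = 8 each). The 3 lowest controls for Il1rn were controls 10, 6 and 5, those with low Lcn2. Without these 3, Il1rn was 2.06 ± 0.17 higher (SE, limma, adjusted p = 2.8e-09), so the difference was smaller but kept its call. A second soluble inhibitor, Il18bp, which binds IL-18, did not pass the test. It averaged 5.99 ± 0.18 in NASH model samples and 5.74 ± 0.33 in controls (limma, adjusted p = 0.18).

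**Figure D1:**
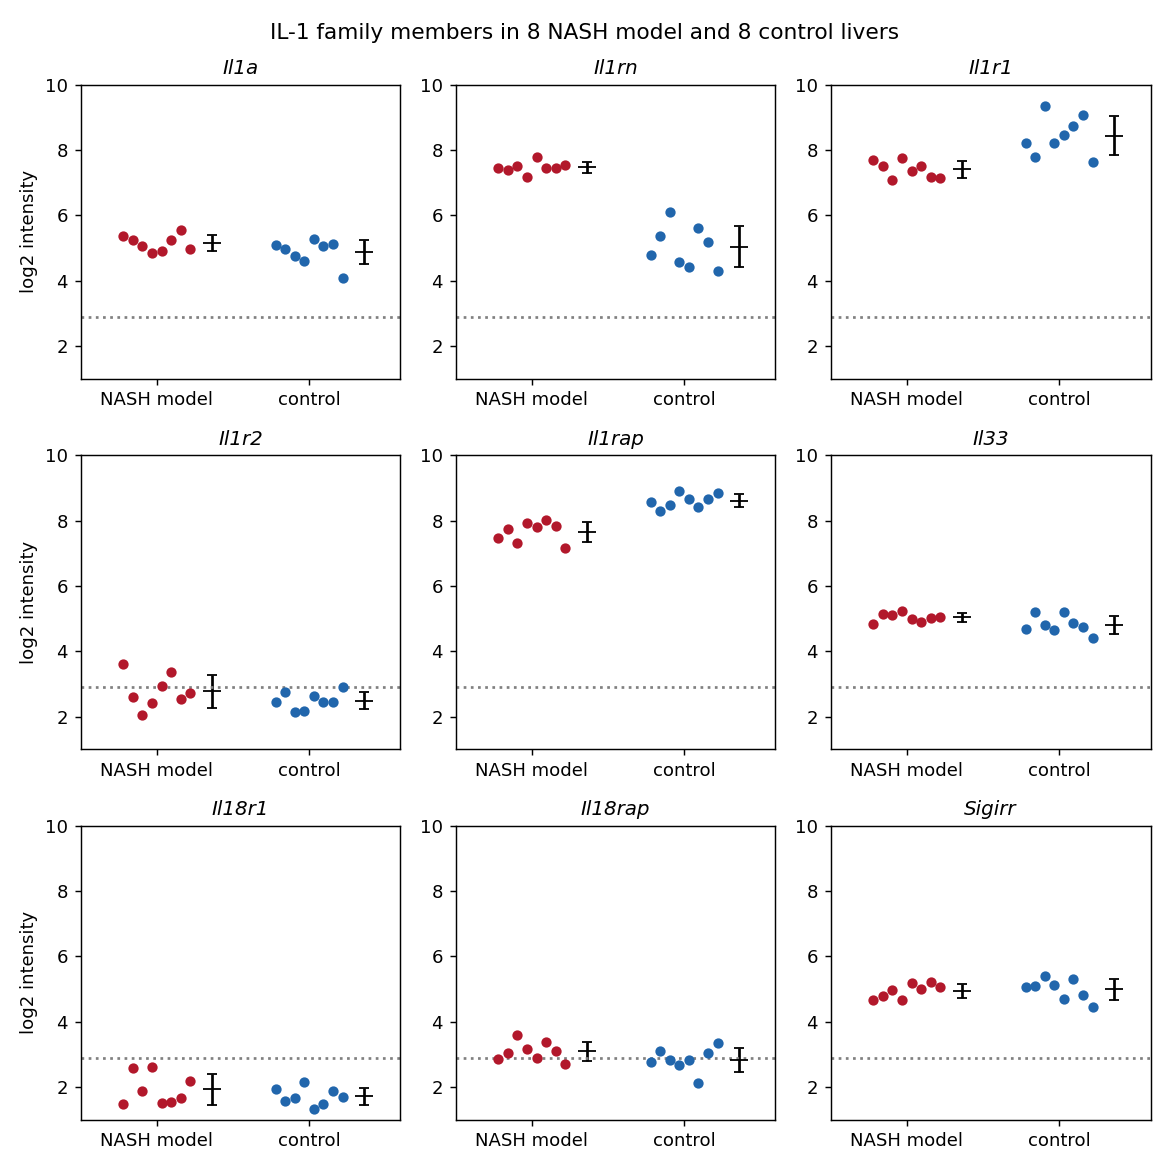
Log2 signal of the measured IL-1 family genes in each sample, with NASH model samples left of controls; points are samples, black marks are group means with SD and the dotted line is the background floor at 2.89. Il1rn and Il1rap do not overlap between the groups, and Il18r1 lies below the floor in all 16 samples.

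Il1r1, the ligand-binding chain of the signalling receptor, was lower in the NASH model. It was 7.71, 7.53, 7.08, 7.76, 7.35, 7.53, 7.19 and 7.15 in NASH model samples 1a, 1b and 2 to 7. In controls 1, 3, 4, 5, 6, 7, 9 and 10 it was 8.21, 7.79, 9.36, 8.23, 8.46, 8.75, 9.07 and 7.63. The groups overlapped at 1 edge: control 10 lay below NASH model samples 3 and 1a. The log2 fold change was -1.03 ± 0.21 (SE, limma, adjusted p = 8.4e-04), with an interval of -1.46 to -0.59. Without controls 5, 6 and 10 the log2 fold change was -1.22 ± 0.22.

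Il1rap, the accessory chain shared by the IL-1 and IL-33 receptors, was lower with no overlap. It was 7.48, 7.76, 7.33, 7.93, 7.80, 8.02, 7.84 and 7.17 in NASH model samples 1a, 1b and 2 to 7. In controls 1, 3, 4, 5, 6, 7, 9 and 10, Il1rap was 8.57, 8.31, 8.49, 8.90, 8.67, 8.43, 8.67 and 8.85. The log2 fold change was -0.94 ± 0.13 (SE, limma, adjusted p = 1.2e-05), with an interval of -1.21 to -0.68. Over all genes, 3.89% were lower with no overlap. Samples 7 and 2 were the lowest of the NASH model group, and without them the log2 fold change was -0.80. Controls 5, 6 and 10, low in Il1rn, were not low in Il1rap, and without them the fold change was -0.83 ± 0.14.

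Il1r2, the decoy receptor, lay near the floor. It was above 2.89 in 3 NASH model samples and in 1 control, and its lowest, median and highest signals were 2.05, 2.65 and 3.62 in the NASH model and 2.13, 2.44 and 2.90 in controls. The groups overlapped, and the log2 fold change was 0.29 ± 0.19 (SE, limma, adjusted p = 0.29). Sigirr, an inhibitory receptor that dampens IL-1 and Toll-like receptor signalling, was well above the floor in all samples. It averaged 4.94 ± 0.21 in NASH model samples and 4.99 ± 0.32 in controls, with a log2 fold change of -0.05 ± 0.13 (SE, limma, adjusted p = 0.84) and an interval of -0.33 to 0.23. Its sign turned under 4 other scalings, with values of 0.01 to 0.19.

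The receptor chains for IL-18 are known mainly from T cells and natural killer (NK) cells. Il18r1, the ligand-binding chain, had no sample above the floor in either group, and a fold would have no basis. Il18rap, its accessory chain, was above the floor in 6 NASH model samples and in 3 controls. It averaged 3.10 ± 0.29 in the NASH model and 2.84 ± 0.36 in controls, and the log2 fold change was 0.26 ± 0.15 (SE, limma, adjusted p = 0.24). Of 9 T and NK cell markers, 3 were higher and 1 was lower, against 13.2% and 13.4% of all genes. Their summed linear signal was 82.1 to 105 in NASH model samples and 77.2 to 112 in controls. This sum mixes opposite changes. The higher markers were Cd3e, Cd8a and Nkg7, and the lower one, Cd4, averaged 3.28 in NASH model samples and 4.93 in controls. Klrb1c, an NK cell receptor, was below the floor throughout.

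**Figure D2:**
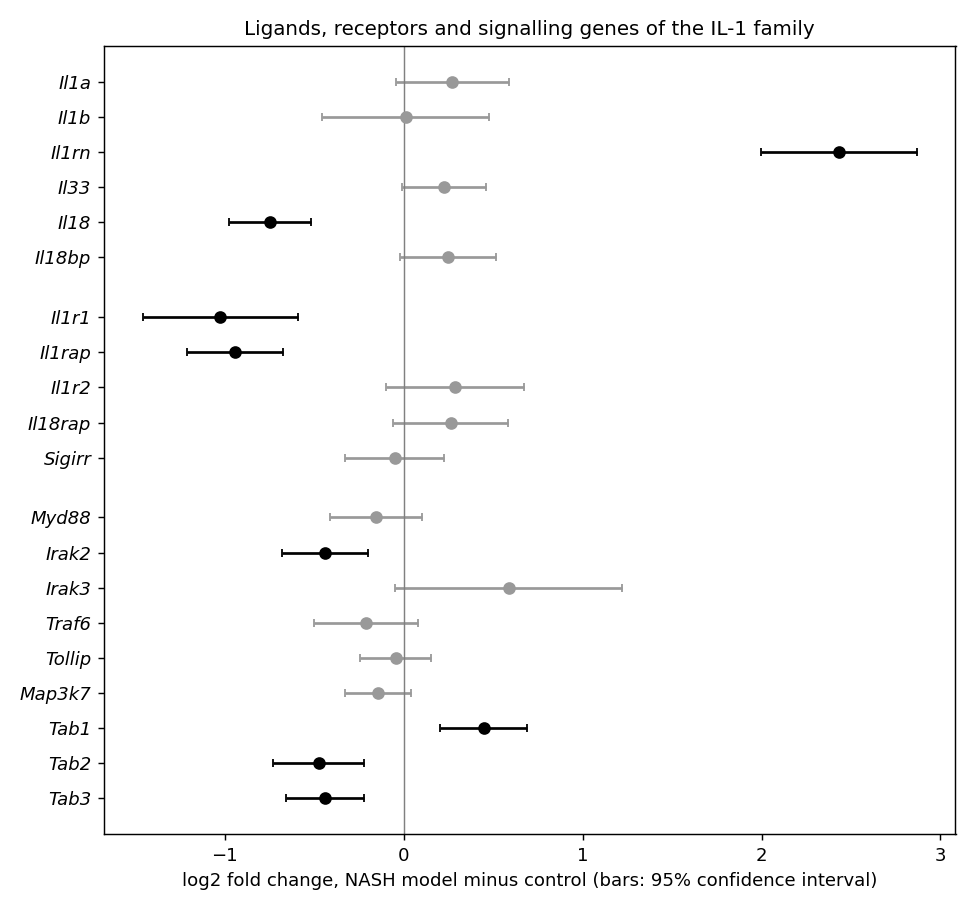
Log2 fold change, NASH model minus control, of ligands and inhibitors, receptors and signalling genes of the IL-1 family; bars are 95% confidence intervals, black marks genes that passed the test and grey those that did not. Il1rn at 2.43 lies far to the right, while Il1r1, Il1rap and Il18 lie left of 0.

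Ratios within a sample cancel a shift shared by all genes of an array and ask whether a pair of genes changed by unequal amounts. They were taken after quantile normalization, which acts by signal level and does not cancel in this way. The level of such a ratio has no meaning of its own, since the probes differ. The log2 ratio of antagonist to receptor, Il1rn to Il1r1, averaged 0.07 ± 0.38 in NASH model samples and -3.39 ± 0.50 in controls (SD, n = 8 each). The difference was 3.46, a factor of 10.99, and the groups did not overlap. The ratio of Il1rn to Il1a averaged 2.33 ± 0.31 in the NASH model and 0.17 ± 0.64 in controls, and the ratio of Il1rn to Il1b averaged 2.83 ± 0.32 in the NASH model and 0.40 ± 0.66 in controls. These differences, 2.16 and 2.42, are factors of 4.47 and 5.36, and neither pair of groups overlapped. For each of the 3, the exact two-sided permutation p was 0.0001554, the smallest the design allows, and 0.000207 after adjustment over the 4 ratios tested. Il1rn alone had the same exact permutation p, but the smallest possible p does not rank these results. All 3 ratios hold Il1rn, whose own log2 fold change was 2.43, so they are not separate from its difference. In the ratio to Il1r1, the log2 fold change of Il1r1, -1.03, also takes part.

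The ratio of the decoy to the signalling receptor, Il1r2 to Il1r1, averaged -4.64 ± 0.44 in NASH model samples and -5.95 ± 0.81 in controls. The groups overlapped. Il1r2 was above the floor in only 3 NASH model samples and 1 control, so this ratio mostly sets Il1r1 against background, and its test is not read as a change in the balance of the receptors. The ratio of Il18rap to Il18r1 is not given because Il18r1 was below the floor.

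**Figure D3:**
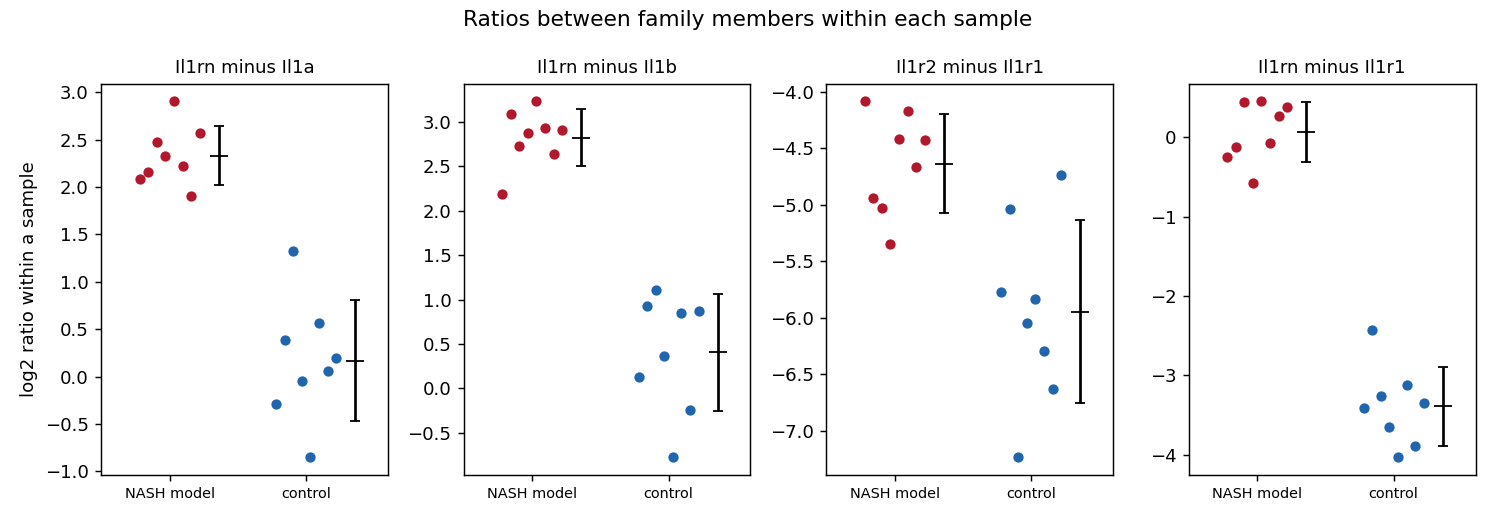
Log2 ratio within each sample for 4 pairs of genes, NASH model samples left of controls; points are samples and black marks are group means with SD. In the 3 ratios with Il1rn on top every NASH model sample lies above every control.

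Downstream of the receptors, 1 of 15 signalling genes measured was higher and 4 were lower, against 13.2% and 13.4% of all genes. Their median log2 fold change was -0.13. Peli2, a ubiquitin ligase of the IRAK complex, fell by 0.50 ± 0.11 (SE, limma, adjusted p = 0.0026). The TAK1 binding proteins moved in opposite directions: Tab2 fell by 0.48 ± 0.12 (limma, adjusted p = 0.0061) and Tab3 by 0.44 ± 0.10 (0.0033), while Tab1 rose by 0.45 ± 0.12 (0.0070). The kinase Irak2 fell by 0.44 ± 0.12 (limma, adjusted p = 0.0068). These counts depended on the processing. Centred on the spike-in controls, 3 signalling genes were higher and 1, Tab2, was lower. With a score of circadian clock genes as a covariate, 0 were higher and 1, Peli2, was lower. That score was 1.05 to 2.38 in NASH model samples. It was 2.55 and 0.60 in controls 5 and 4, and -3.61 to -1.58 in the other controls. It therefore takes up part of the group difference, and clock and group cannot be told apart where a call is lost. The adaptor Myd88 had a log2 fold change of -0.16 ± 0.12 (limma, adjusted p = 0.40).

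Irak3, which encodes IRAK-M, an inhibitory IRAK protein of the pathway in macrophages, averaged 5.52 ± 0.23 in NASH model samples and 4.94 ± 0.95 in controls. Its log2 fold change was 0.59 ± 0.30 (SE, limma, adjusted p = 0.17). Like Il1rn, it was lowest in controls 10, 6 and 5, at 3.75, 3.79 and 4.45, and without them the fold change was 0.02. Control 4 had the highest Irak3, 6.62, and without control 4 the fold change was 0.83 (limma, adjusted p = 0.013).

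**Figure D4:**
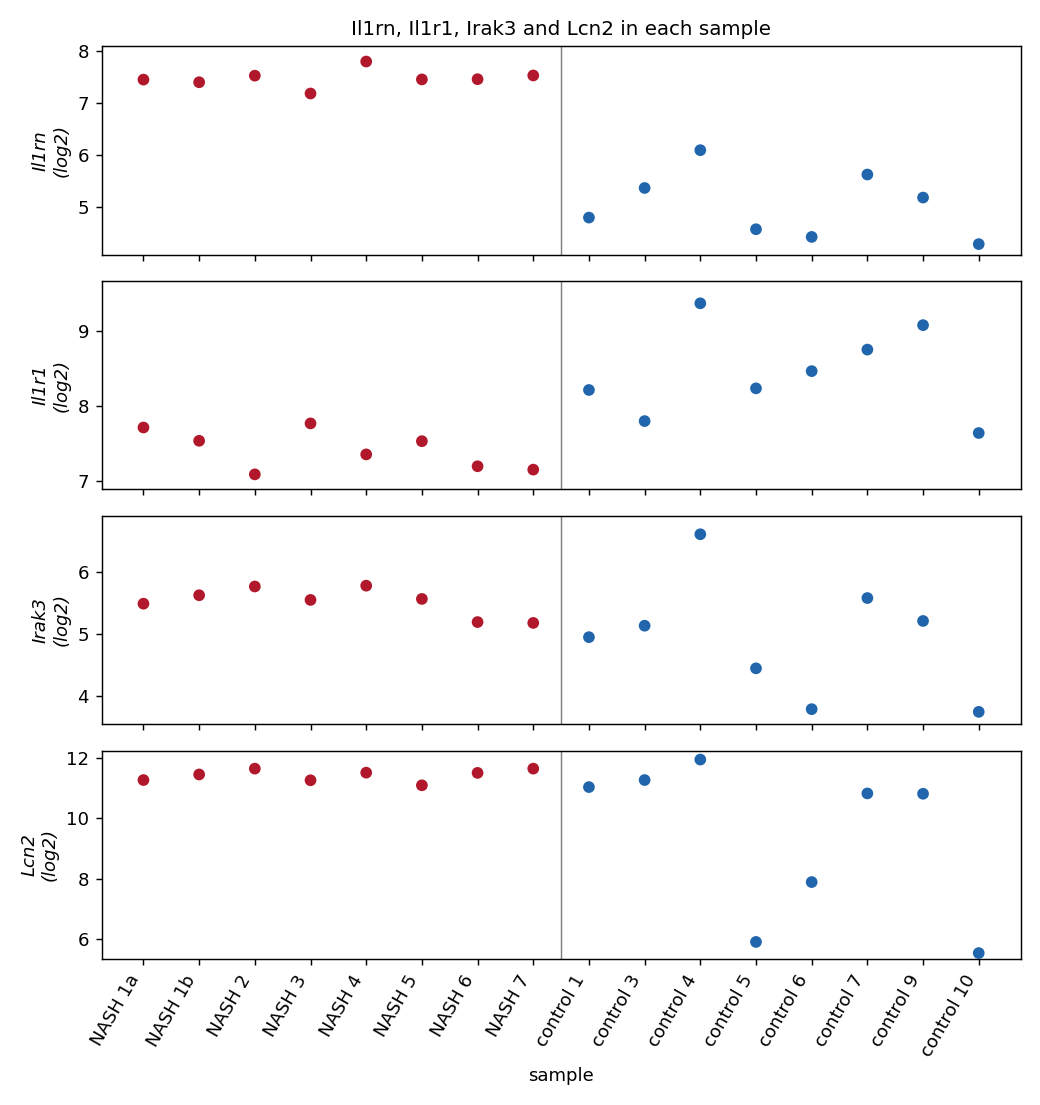
Log2 signal of Il1rn, Il1r1, Irak3 and Lcn2 in each of the 16 samples, NASH model samples left of controls, with a separate scale per gene. Controls 5, 6 and 10 hold the 3 lowest values of Il1rn, Irak3 and Lcn2, and are not the 3 lowest for Il1r1.

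Of 9 genes for the processing and release of IL-1 family ligands, 4 were higher and 2 were lower, against 13.2% and 13.4% of all genes. Casp1, the protease that matures IL-1 beta and IL-18, rose by 1.29 ± 0.14 (SE, limma, adjusted p = 1.0e-06), and the inflammasome adaptor Pycard by 1.31 ± 0.17 (9.1e-06). Prtn3, a neutrophil serine protease, fell by 1.19 ± 0.37 (limma, adjusted p = 0.021), but it was not called without NASH model samples 2 and 7 (0.065) or with the clock score (0.21). The lower count of this list was 0 with the clock score and 1 with spike-in centring. Of 20 genes that respond to IL-1, 8 were higher and 0 lower, against 13.2% and 13.4% of all genes. Their median log2 fold change was 0.39, and 5 were higher with the clock score. Tnfaip3, the NF-kB feedback inhibitor A20, rose by 2.18 ± 0.13 (SE, limma, adjusted p = 1.9e-10) and Vcam1, a leukocyte adhesion molecule, by 1.53 ± 0.19 (5.1e-06). Mmp13, a collagenase, was higher (limma, adjusted p = 5.4e-06). It averaged 4.17 ± 0.56 in NASH model samples and 2.27 ± 0.52 in controls, of which 1 was above the floor, so the size of the difference is uncertain.

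The acute-phase genes of that list depended on controls 5, 6 and 10. With all samples, Saa1 had a log2 fold change of -1.64 ± 0.61 (SE, limma, adjusted p = 0.054), Saa2 of -1.92 ± 0.80 (0.087) and Lcn2 of 2.02 ± 0.78 (0.063). Without these 3 controls, Saa1 fell by 2.90 ± 0.26 (limma, adjusted p = 5.3e-07) and Saa2 by 3.69 ± 0.29 (1.1e-07), while Lcn2 was 0.25 ± 0.17 higher (0.34). The count of higher genes in the list was then 6 in place of 8, and that of lower genes 3 in place of 0. Saa1 and Saa2 are close copies, and their probe sets may share signal.

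Of 11 type 2 genes measured, known to act downstream of IL-33, 1 was higher and 1 was lower, against 13.2% and 13.4% of all genes, with a median log2 fold change of -0.00. Ccl22, a chemokine of macrophages and dendritic cells, was higher (limma, adjusted p = 2.1e-06). It averaged 4.70 ± 0.41 in NASH model samples and 2.60 ± 0.66 in controls, of which 2 were above the floor, so the size of the difference is uncertain. The lower one, Retnla, an alternative activation marker, was below the floor in all samples and kept its call in 4 of the 16 fits that left out 1 sample, so it is not read as a change. Of 10 interferon gamma and cytotoxic genes, known to act downstream of IL-18, 2 were higher and 0 lower, the chemokines Cxcl10, by 1.53 ± 0.15 (limma, adjusted p = 2.1e-07), and Cxcl9, by 1.21 ± 0.19 (8.2e-05). Ifng itself, encoding interferon gamma, was below the floor in all samples.

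Of the other family genes, 1 of 10 was higher and 1 lower, against 13.2% and 13.4% of all genes. The lower one was Il18, given above. The higher one, Il1rl2, the IL-36 receptor chain, was below the floor in every control and above it in 3 NASH model samples, and a fold would have no basis. The IL-36 ligand genes Il1f6 and Il1f8 and the receptors Il1rapl1 and Il1rapl2 were below the floor in all samples.

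Markers of several liver cell types moved between the groups as well. Over all genes 13.2% were higher and 13.4% lower, the shares to set beside each count. Of 7 recruited macrophage markers, 7 were higher, and their summed linear signal was 1904 to 2666 in NASH model samples and 111 to 164 in controls. Of 8 markers of Kupffer cells, the resident liver macrophages, 5 were lower and 1 higher, at 812 to 1731 in NASH model samples and 1707 to 3380 in controls. The fall in this sum rests mostly on its brightest control gene, C6, which averaged 9.26 in NASH model samples and 10.76 in controls. Cd5l, the higher marker, averaged 8.79 in NASH model samples and 8.14 in controls. Of 8 sinusoidal endothelial markers, 5 were lower and 1 higher, at 705 to 951 in NASH model samples and 898 to 1284 in controls. Of 8 stellate cell markers, 5 were higher and 0 lower, at 621 to 778 in NASH model samples and 340 to 428 in controls. Cholangiocyte markers, 4 of 7 higher, summed to 103 to 589 in NASH model samples and 112 to 200 in controls. None of these 5 lists had a marker below the floor in all samples. Their part in the values of Il1rn, Il1r1 and Il1rap was not tested.

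Markers of rarer immune cells were dim. Their counts stand against 13.2% higher and 13.4% lower over all genes. Of 10 neutrophil markers 2 were higher, with Mpo and Ltf below the floor in all samples, and the sum was 122 to 197 in NASH model samples and 65.9 to 168 in controls. Of 8 mast cell and basophil markers 1 was lower, at 71.4 to 97.9 in NASH model samples and 81.1 to 116 in controls, with Cpa3, Ms4a2, Mcpt4 and Mcpt8 below the floor throughout. Of 6 markers of group 2 innate lymphoid and regulatory T cells, which are known responders to IL-33, 1 was higher, at 167 to 267 in NASH model samples and 198 to 287 in controls. Ctla4, Klrg1 and Il2ra of that list were below the floor in all samples.

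Genes that varied most like each member were taken over the 16 samples as deviations from the group means, among 11923 genes above the floor. These correlations are a description across samples that share their array and depth of signal. For Il1rn the closest were Laptm5, a lysosomal membrane protein of leukocytes (Pearson r = 0.95, Spearman rho = 0.94), Irak3 (r = 0.92, rho = 0.83) and Ifi30, a lysosomal thiol reductase of antigen-presenting cells (r = 0.92, rho = 0.84). Within controls alone these r were 0.96, 0.97 and 0.96, and within NASH model samples 0.77, 0.24 and 0.34. For Irak3 and Ifi30 the likeness was thus closer within controls, where Il1rn spread more widely, than within NASH model samples; that difference was not tested.

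For Il1rap the closest were Pon1, a paraoxonase secreted by hepatocytes (r = 0.92, rho = 0.93), Ugt2a3, a glucuronosyltransferase (r = 0.92, rho = 0.89), and Pbld1 (r = 0.91, rho = 0.87). Here r was 0.95, 0.96 and 0.94 within NASH model samples and 0.90, 0.80 and 0.84 within controls. For Il1r1 they were Rfc1, a DNA replication factor (r = 0.86, rho = 0.76), Pcnt, a centrosome scaffold (r = 0.85, rho = 0.83), and Dram1, a lysosomal protein of autophagy (r = 0.82, rho = 0.73). Within NASH model samples these r were 0.74, 0.77 and 0.49, and within controls 0.96, 0.89 and 0.87. No gene was among the 3 closest to more than 1 of Il1rn, Il1rap and Il1r1. Between the groups Rfc1, Pcnt and Dram1 had log2 fold changes of 0.02, -0.00 and 1.04, against -1.03 for Il1r1. Those of Pon1, Ugt2a3 and Pbld1 were -0.14, -0.93 and -0.85, against -0.94 for Il1rap.

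For the members that did not pass the test, the closest genes were these. For Il1a they were Creld2, Hyou1 and Wdr20 (r = 0.83, 0.83 and 0.81), of which Creld2 and Hyou1 are chaperone genes of the endoplasmic reticulum. Between the groups Creld2, Hyou1 and Wdr20 had log2 fold changes of -2.07, -1.39 and -0.46, against 0.27 for Il1a. For Il33 they were Lrrk1, Tafa2 and Lcp2 (r = 0.83, 0.83 and 0.76). Within NASH model samples these r were 0.26, 0.75 and 0.37, and within controls 0.94, 0.84 and 0.82. For Sigirr they were Plppr3, Rpap3 and Aif1 (r = 0.84, 0.82 and 0.81). These r were 0.60, 0.61 and 0.46 within NASH model samples and 0.92, 0.91 and 0.94 within controls. For Il18rap, above the floor in 9 samples, they were Lama1, Dtx3 and Tm2d1 (r = 0.85, 0.80 and 0.78).

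The scaling of the arrays changed how many genes were called in each direction, but not the 3 calls among the members. Higher genes were 49.6% of all calls after quantile normalization, 39.2% with centring on array medians and 73.7% with centring on spike-in controls. Across all 31 alternatives Il1rn, Il1r1 and Il1rap kept their direction and their call. The log2 fold change ran between 2.06 and 2.59 for Il1rn, between -1.22 and -0.89 for Il1r1, and between -1.08 and -0.80 for Il1rap.

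**Figure D5:**
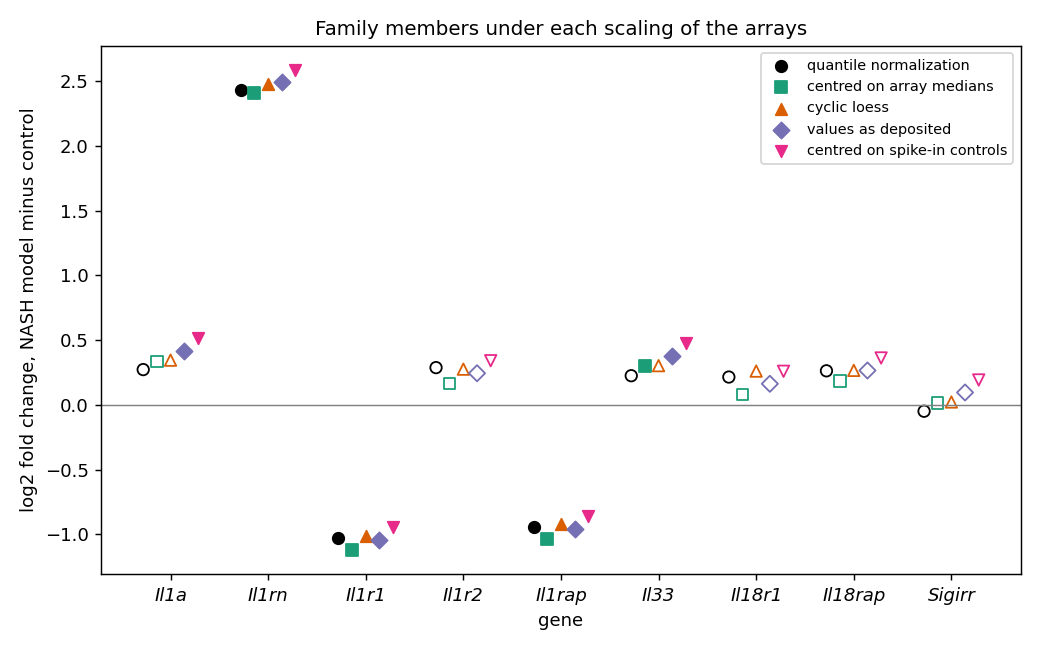
Log2 fold change, NASH model minus control, of the measured IL-1 family genes under 5 scalings of the arrays; filled symbols passed the test, open ones did not, and Il18r1 is below the floor in all samples. Il1rn stays above 2.40 and Il1r1 and Il1rap stay below 0 in each, while Sigirr lies on both sides of 0.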

How the data were processed

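The authors deposited log2 signals of 29129 probe sets. The software and summary method that made these signals are not given in the sources used. Per the labels' protocols, RNA was isolated with TRIzol and labelled by the standard Affymetrix protocol. The platform annotation names a single gene for 19572 of them. Column medians ran between 3.52 and 3.66, a span of 0.14 and above the limit of 0.1, so quantile normalization was applied. It changed no value by more than 0.16. The row with the highest mean over 16 samples was kept for each of 19505 genes. Groups were compared with limma (3.58.1, R 4.3.3; lmFit and eBayes, two-sided), and the threshold was an adjusted p (Benjamini-Hochberg) of 0.05. Ratios were tested by exact permutation of the group labels (12870 arrangements). The number of arrays limits the precision.

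The members, gene lists and tests were chosen with earlier results of these data known. Named are all members, the 3 largest changes among called genes of each list, Il1b, Il18, Il18bp, Myd88 and Irak3, and the 3 genes most like each member. Tab3, Irak2, the markers, Lcn2, Saa1, Saa2, the genes below the floor and Ifng were named after their values were seen. NASH model 1a and 1b differed with an SD of 0.387 over genes, against 0.340 to 0.466 in 27 other pairs, and were kept as separate samples. The limma step was tested on simulated data. Alternatives were other scalings, filters, variance settings, covariates and the omission of samples; those without controls 5 and 10, or 5, 6 and 10, were added after seeing the data.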

Additional observations from a re-analysis of the deposited data

Results flagged for a closer look

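Of 70 groups of 8 samples tested for a value far from the others, 3 held one, where chance alone gives about 1 in 20. Mmp13 in NASH model sample 7 was 3.01 on the log2 scale, with the nearest NASH model sample at 3.91 and the highest at 4.72. Mmp13 in control 5 was 3.40, with the nearest control at 2.38 and the lowest at 1.70. Cxcl9 in control 3 was 6.78, with the nearest control at 6.07 and the lowest at 5.63. No member of the IL-1 family set held such a value.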

How the results depend on the processing

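Of the members, Il1rn, Il1r1 and Il1rap kept their direction and call under all 31 alternatives, with adjusted p at most 0.0016, 0.033 and 0.0016. Members called higher numbered 2 with centring on array medians, and 3 both as deposited and with spike-in centring; the additions were Il33 (0.30, 0.38 and 0.47) and, in the last pair of settings, Il1a. With a clock gene score as a covariate, 2780 genes were called, 1525 higher and 1255 lower, against 5196, 2577 and 2619. That score largely follows the groups, so it takes up part of the group difference. With spike-in centring, 1179 were lower. Leaving out each sample in turn gave 4760 to 5122 calls, 1 member higher and 2 lower each time. Sigirr changed sign with centring on array medians (0.015), cyclic loess (0.022), values as deposited (0.10) and spike-in centring (0.19), and ran from -0.13 to 0.011 when each sample was left out. Il1b changed sign with array weights (-0.0096), with 1a and 1b averaged (-0.0089), without NASH model 2 and 7 (-0.0079), with the replicate block (-0.10), without controls 5 and 10 (-0.27) and without controls 5, 6 and 10 (-0.21), and ran from -0.16 to 0.12 when each sample was left out. Myd88 was 0.081 with the clock score. Irak3 was called with spike-in centring (0.80) and without control 4 (0.83), and Il18bp in the same settings (0.42 and 0.32). With the floor at the 90th percentile, 2.60, no member was below it in all samples. The causes were not tested.

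The labels used here do not say whether samples with the same replicate number are paired. Over 6 shared numbers the correlations of their deviations over all genes ran from -0.02 to 0.06. No pairing was seen, but such a check cannot exclude it. With the number as a replicate block over 13 samples, 3924 genes were called, and Il1rn was 2.34, Il1r1 -1.01 and Il1rap -0.84, all still called; Tab1 lost its call (0.37).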
